A study of Homo sapiens with 24 samples.

Results

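MC4455, a compound that the sources used here give only by its code name, was applied to MV4-11 cells, and the 3 MC4455 libraries were set against 3 libraries of cells that received DMSO, the solvent control. These 6 libraries belong to a series of 24 in 8 groups of 3, all of poly(A)-selected RNA read without strand information. MV4-11, an established line from a human acute myeloid leukaemia, is of monocytic type and carries an MLL gene fusion, and every group carried the genotype label PRMT5 +/+. The groups used below received MC4455, MC4491 (a second compound known only by a code name), GSK-LSD1 (an inhibitor of the histone demethylase LSD1, 10 nM for 3 days per the series' design text) or DMSO. For MC4455 and MC4491 the labels gave neither dose nor time. Whether they match in time the DMSO libraries, which are given as 3 days, is therefore not known. Differences between groups below, DMSO included, are differences between these treatments as applied. The series asks why PRMT5 and LSD1 inhibitors act together on leukaemia cells, and nothing in the labels states the target of MC4455.

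As background, LSD1 (gene KDM1A) demethylates histone H3 and works with CoREST proteins and the repressors GFI1 and GFI1B, which hold monocyte genes low in myeloid precursors. PRMT5 and the other arginine methyltransferases modify histones, splicing factors and signalling proteins. Surface integrins, Fc receptors, Toll-like receptors and the NADPH oxidase are the equipment of the mature phagocyte, while cholesterol synthesis, amino acid supply, protein folding and DNA replication genes serve growing cells.

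The MC4455 libraries A, B and C held 37947869, 36764534 and 32495446 estimated counts and the DMSO libraries A, B and C 37096387, 61090593 and 44475559. The labelled cell type was borne out in its markers, since all 10 identity genes of the line (CD33, SPI1, FLT3, HOXA9, MEIS1, CD4, ITGAL, PTPRC, CD44 and MPO) were present in every group, with a summed level of 4060 to 4160 CPM (counts scaled to the library total) in MC4455 libraries and 3660 to 3880 CPM in DMSO libraries. Among markers of other cell types, CD2 and MS4A1 of lymphocytes and KRT19 and COL3A1 of epithelium and fibroblasts were listed at 0 in both groups of libraries. The summed level of 16 lymphocyte markers was 42.1 to 47.3 CPM in MC4455 libraries and 38.8 to 44.7 CPM in DMSO libraries. Of 11 tested, KLRD1 (12.2, 14.3 and 14.2 CPM in MC4455 libraries, a call lost without DMSO C) and CD3G rose, and IGLL1 and TRAC fell. The sum of 14 erythroid and megakaryocyte markers was 1160 to 1350 CPM in MC4455 libraries and 1980 to 2070 CPM in DMSO libraries. TFRC, the transferrin receptor, made up most of it in both groups, with 1200, 1300 and 1110 CPM in MC4455 libraries. HBG1, HBG2, ALAS2, PF4 and PPBP were listed at 0 in both groups. Of 6 tested, ITGA2B rose by 0.67 and TFRC fell by 0.73 on the log2 scale. The summed level of 10 epithelial and fibroblast markers was 19.2 to 20.2 CPM in MC4455 libraries and 15.1 to 17 CPM in DMSO libraries, with no overlap, and 2 of the 5 tested rose and 0 fell. These were KRT8, a keratin, with 8.67, 7.64 and 9.31 CPM in MC4455 libraries and 4.61, 5.55 and 5.60 CPM in DMSO libraries, and DCN, a matrix proteoglycan, which was under 0.3 CPM in all 6 libraries, and their part in other results was not tested. Some libraries stood apart. RRP9, a factor of ribosomal RNA processing, was at 29.5 to 35.2 CPM before scaling in the MC4455 libraries and at 35.1, 32 and 1.1 CPM in DMSO libraries A, B and C, so that DMSO C was far below the rest. DMSO C also stood apart over 11040 genes with a mean above 5 CPM. There the root mean square log2 difference was 0.378 between DMSO A and C, 0.340 between DMSO B and C and 0.234 between DMSO A and B. MC4455 A, B and C were 0.296, 0.324 and 0.336 from DMSO B, nearer to it than DMSO C was. They were 0.366, 0.421 and 0.403 from DMSO A and 0.448, 0.479 and 0.483 from DMSO C. DMSO A was low for several phagocyte genes, and MC4455 B differed from MC4455 A and C for VCAN, SYT2 and IGF1, where it lay in or near the range of the MC4491 libraries. Over the 11040 genes, MC4455 A was 0.228 from MC4455 B and 0.261 from MC4455 C, and MC4455 B was 0.281 from MC4455 C. Whether MC4455 B matches its label or holds a mixture was not tested, and values from all 3 MC4455 libraries include it. The labels do not say whether A, B and C were separate cultures, and all p-values reflect library-to-library spread alone.

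Against DMSO, MC4455 changed many genes by small amounts and few by large ones. Of 16640 genes tested, 6264 (37.6%) passed edgeR's quasi-likelihood test at a Benjamini-Hochberg adjusted p of 0.05, and only such genes are said to have changed, risen or fallen. They were 3071 higher genes (18.5%) and 3193 lower genes (19.2%). The median absolute log2 fold change of changed genes was 0.30. At least a 2-fold change was found for 344 higher genes (2.07%) but only 61 lower genes (0.367%). The 3 MC4455 libraries lay wholly above or wholly below the 3 DMSO libraries for 7888 genes (47.4%), and 5909 genes (35.5%) met both criteria. Leaving out DMSO C and MC4455 B together lowered the count of changed genes to 4161, with 2015 higher and 2146 lower. Direction went with level, and in part with transcript length and GC content. When the genes with a length and GC value were put in 5 groups by mean level over all libraries, the median log2 fold change was 0.31, 0.19, -0.02, -0.05 and -0.07 going up in level. In the group highest in level, 471 of 3153 genes rose and 1187 fell. With groups by length, 969 of the longest rose and 451 fell. With groups by GC, 371 of the highest rose and 700 fell. The part of these trends in the gene list results below was not tested. Those lists were chosen with earlier results of these data known. Their counts are descriptions, to be read beside the 18.5% of all tested genes that rose and the 19.2% that fell.

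**Figure D1:**
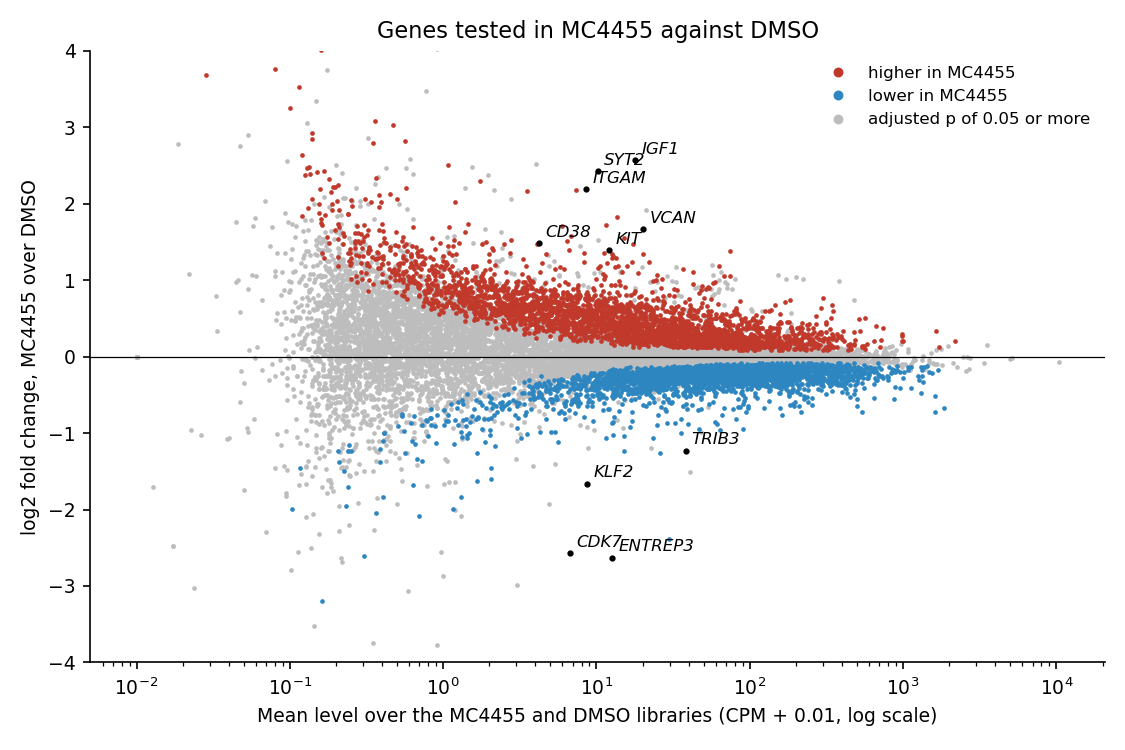
Each point is a gene tested in MC4455 against DMSO, with its mean level over the 6 libraries (CPM + 0.01, log scale) on the x axis and its log2 fold change, MC4455 over DMSO, on the y axis, red where it rose, blue where it fell and grey where it did not pass. Large rises such as IGF1 (2.57) and ITGAM (2.19) outnumber large falls such as KLF2 (-1.66), and 66 genes beyond a log2 fold change of 4 in either direction are not drawn.

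The 15 largest rises among called genes with a mean of at least 5 CPM and no overlap of the groups are described first. IGF1, the insulin-like growth factor (ENSG00000017427, chromosome 12, 102395874 to 102481744, minus strand, GRCh38), had 33.7, 22.7 and 35.4 CPM in MC4455 libraries A, B and C, against 4.39, 5.87 and 5.01 CPM in DMSO libraries A, B and C. The groups did not overlap, and the log2 change was 2.57 ± 0.16 (SE) with edgeR adjusted p = 2.97e-09. SYT2, a calcium sensor of vesicle release, had 20.8, 9.59 and 21.5 CPM in MC4455 libraries and 2.56, 3.35 and 3.63 CPM in DMSO libraries, a log2 change of 2.43 ± 0.22 (SE) with edgeR adjusted p = 2.35e-07. MC4455 B was the low library for both genes, yet still above every DMSO library. VCAN, the gene of the matrix proteoglycan versican, had 39.9, 11.7 and 40.7 CPM in MC4455 libraries and 10.1, 9.87 and 8.94 CPM in DMSO libraries, with a log2 change of 1.67 ± 0.26 (SE) with edgeR adjusted p = 7.55e-05. Here MC4455 A and C were high, while MC4455 B lay just above the DMSO range. RHBDL3, a rhomboid-like protease, had 19.1, 13.7 and 20.6 CPM in MC4455 libraries and 4.36, 6.06 and 5.66 CPM in DMSO libraries, again with MC4455 B lowest of the treated libraries. SLC8A1, a sodium and calcium exchanger, rose by 1.47 on the log2 scale to 6.70, 4.43 and 6.87 CPM in MC4455 libraries, against 2.43, 2.03 and 2.05 CPM in DMSO libraries. The calls for IGF1, SYT2, VCAN, RHBDL3 and SLC8A1 held in 15 of 15 alternative settings.

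ITGAM, the alpha chain of an integrin of monocytes and granulocytes (ENSG00000169896, chromosome 16, 31259967 to 31332892, plus strand), had 14.6, 12.4 and 15.3 CPM in MC4455 libraries and 2.13, 3.66 and 3.32 CPM in DMSO libraries. All treated libraries were well above all controls, with a log2 change of 2.19 ± 0.17 (SE) with edgeR adjusted p = 3.41e-08. JAML, an adhesion molecule of migrating leukocytes, had 21.4, 22.9 and 22.8 CPM in MC4455 libraries and 6.38, 8.17 and 8.28 CPM in DMSO libraries, a log2 fold change of 1.55. CYBB, the catalytic subunit of the phagocyte NADPH oxidase, had 9.74, 10.2 and 8.66 CPM in MC4455 libraries and 3.35, 3.71 and 3.75 CPM in DMSO libraries, a log2 fold change of 1.40. The spread of JAML and CYBB within each group was small beside the gap between the groups. CD38, an enzyme that consumes NAD at the cell surface, rose by 1.48 on the log2 scale, with 5.47 to 7.09 CPM in MC4455 libraries and 2.13 to 2.35 CPM in DMSO libraries. The Fc receptor genes FCGR2B and FCGR2C with the neighbouring HSPA7, and NCF1 with its copies NCF1B and NCF1C, had log2 fold changes of 1.47 to 2.18. These genes have near-identical copies among which reads can be split, so the change of each single copy is uncertain. DMSO A was the lowest control for NCF1, at 5.24 CPM against 11.1 CPM in both DMSO B and DMSO C.

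The promoters of ITGAM, JAML and CYBB are printed because these 3 genes rose together and each has a promoter that holds GAGGAA, the core of the PU.1 motif, where PU.1 is the myeloid factor encoded by SPI1. The sequences are the 250 bases before the start in RefSeq (GRCh38.p14), 5′ to 3′ on the strand of the gene, with GAGGAA or its reverse complement TTCCTC in capitals, at chr16:31259725-31259974 (plus strand) for ITGAM, chr11:118212947-118213196 (minus strand) for JAML and chrX:37779809-37780058 (plus strand) for CYBB.
ITGAM: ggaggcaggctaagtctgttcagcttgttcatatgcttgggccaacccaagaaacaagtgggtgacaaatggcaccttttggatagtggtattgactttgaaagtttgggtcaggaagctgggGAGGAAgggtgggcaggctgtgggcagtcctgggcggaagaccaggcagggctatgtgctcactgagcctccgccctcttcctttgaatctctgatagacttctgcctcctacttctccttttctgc
JAML: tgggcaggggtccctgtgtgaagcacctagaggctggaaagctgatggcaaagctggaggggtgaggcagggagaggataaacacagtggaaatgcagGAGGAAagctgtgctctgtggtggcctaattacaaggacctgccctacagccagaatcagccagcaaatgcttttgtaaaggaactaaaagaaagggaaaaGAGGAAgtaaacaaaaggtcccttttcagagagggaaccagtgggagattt
CYBB: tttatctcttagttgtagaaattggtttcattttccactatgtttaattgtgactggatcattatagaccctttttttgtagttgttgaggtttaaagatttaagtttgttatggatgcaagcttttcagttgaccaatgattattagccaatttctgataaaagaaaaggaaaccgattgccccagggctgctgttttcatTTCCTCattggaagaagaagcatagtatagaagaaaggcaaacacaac
The match began 127 bases before the start in ITGAM, 152 and 51 bases before it in JAML and 48 bases before it in CYBB. GAGGAA on either strand stood in 6 of 15 promoters (40%) of the 10 genes among the 15 largest rises that matched, in 12 of 23 promoters (52.2%) of the monocyte and macrophage markers, and in 23.6% of all 35116 promoters. The core of the GFI1 motif, AAATCA, was in 0 of the 15 promoters of the largest rises and in 11.6% of all promoters. Among the promoters of the monocyte and macrophage markers it was in 6 of 23 (26.1%). TTGCNNAA (the C/EBP motif), CACGTG (the E-box), TCACNCCAC (a sterol element) and TGANTCA (the AP-1 motif) were in 0, 0, 0 and 1 of those 15 promoters, against 9.05%, 6.34%, 0.883% and 6.57% of all promoters. A match of letters is a description of the window and not a bound site.

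**Figure D2:**
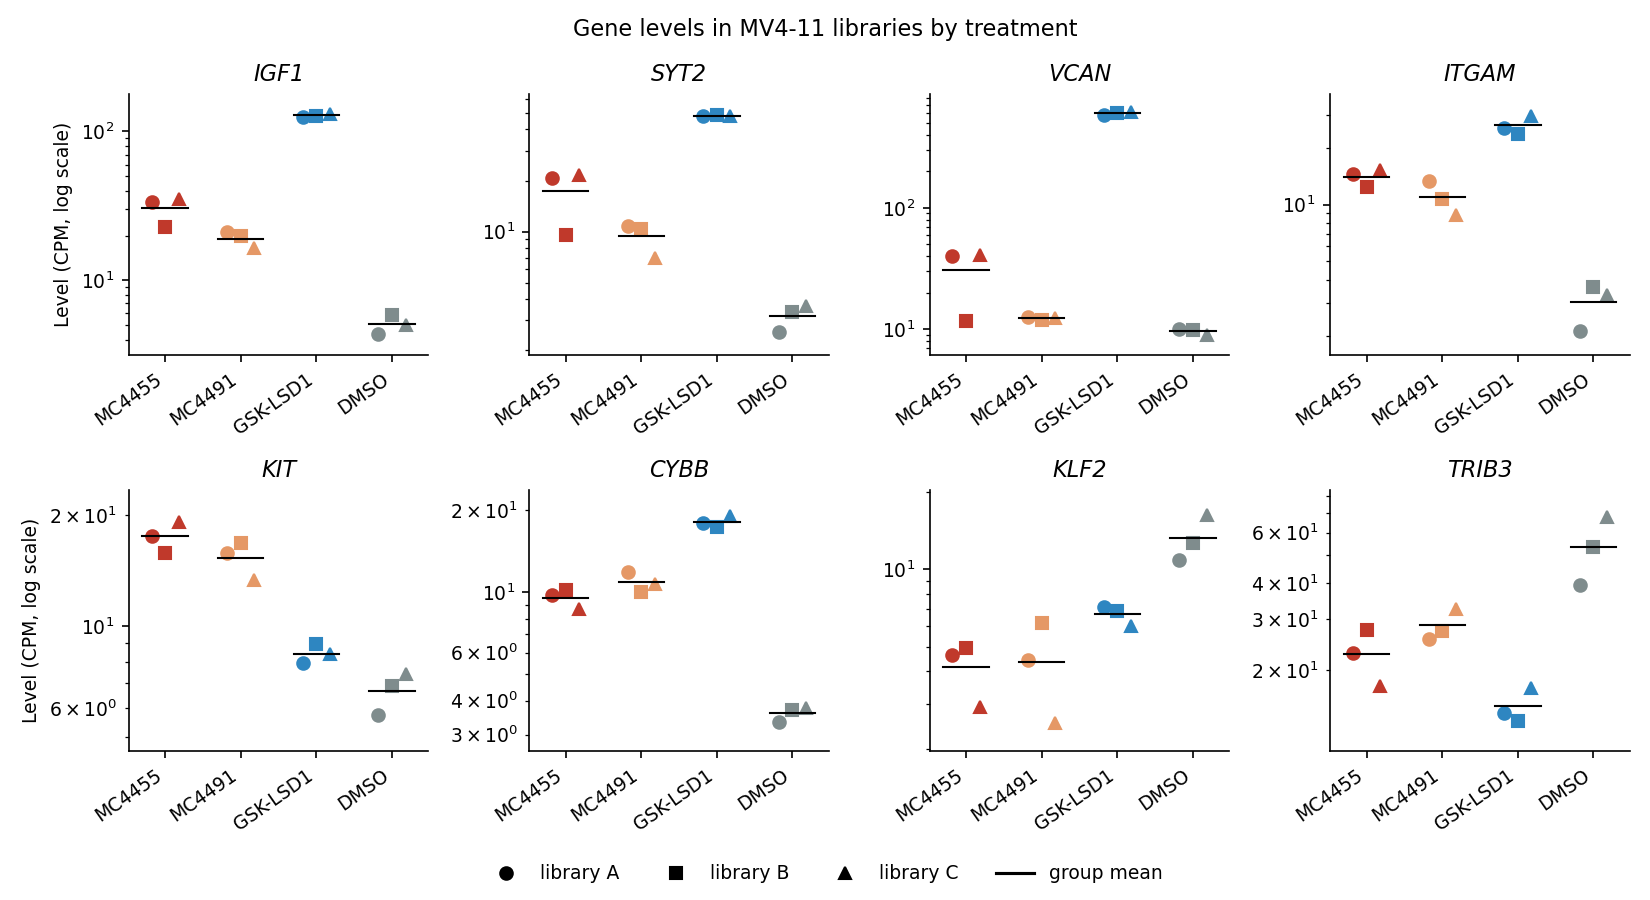
Levels of 8 genes (CPM, log scale) in each library of the MC4455, MC4491, GSK-LSD1 and DMSO groups, with circles, squares and triangles for libraries A, B and C and a line for the group mean. IGF1, SYT2, VCAN, ITGAM, KIT and CYBB were higher and KLF2 and TRIB3 lower in MC4455 than in DMSO libraries, and VCAN was at 11.7 CPM in MC4455 B against 39.9 and 40.7 CPM in MC4455 A and C.

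Of 19 tested monocyte and macrophage markers, 12 rose and 1 fell, with a median log2 fold change of 0.44 against 0.009 over all genes tested. Besides ITGAM, VCAN and CYBB, MPEG1, a pore-forming protein of phagocytes, rose by 1.05 on the log2 scale, with 98.5, 74.2 and 102 CPM in MC4455 libraries and 41.5, 47.3 and 43.7 CPM in DMSO libraries. ITGAX, an integrin chain of monocytes and dendritic cells, had 59.1, 73.5 and 59.5 CPM in MC4455 libraries and 20.4, 38.7 and 42.4 CPM in DMSO libraries, a log2 fold change of 0.92. CSF1R, the receptor of the macrophage growth factor, rose by 0.40, and CD86, a costimulatory ligand of T cells, by 0.87 on the log2 scale. DMSO A was the lowest control for ITGAX and for CD86, which had 5.97, 6.80 and 6.51 CPM in MC4455 libraries and 1.88, 3.79 and 4.78 CPM in DMSO libraries. The marker that fell was FCGR1A, by 0.29 on the log2 scale, while CD14, the lipopolysaccharide co-receptor, stayed under 0.4 CPM in all 6 libraries and CD163 was listed at 0 in both groups. The summed level of the list was 1780 to 1910 CPM in MC4455 libraries and 1540 to 1570 CPM in DMSO libraries, and 10 markers rose with DMSO C and MC4455 B left out. In RNA from whole cultures, more cells of a kind and more RNA per cell cannot be told apart.

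Further lists of surface and defence genes held more rises than falls, while 18.5% of all tested genes rose and 19.2% fell. Of 14 leukocyte adhesion genes, 11 rose and 1 fell (median 0.34), among them ITGB7 with 69.2, 58.7 and 75.0 CPM in MC4455 libraries and 34.8, 35.5 and 39.8 CPM in DMSO libraries, and CD44, which rose by 0.37 on the log2 scale. Of 14 chemokine and chemokine receptor genes, 9 rose and 0 fell (median 0.45). CXCR3, a chemokine receptor of activated lymphocytes, had 4.93, 4.01 and 4.90 CPM in MC4455 libraries and 2.51, 2.34 and 2.41 CPM in DMSO libraries. CCL2, a monocyte attractant, rose by 2.29 on the log2 scale at a low level of 2.37 to 3.37 CPM in MC4455 libraries and 0.436 to 0.742 CPM in DMSO libraries. Of 16 Toll-like receptor and adaptor genes, 9 rose and 0 fell (median 0.42), with TLR1 at 18.7, 20.6 and 18.9 CPM in MC4455 libraries and 11.8, 14.0 and 13.3 CPM in DMSO libraries. TLR5, the flagellin sensor, rose by 1.34 on the log2 scale at 2.63 to 3.05 CPM in MC4455 libraries and 1.01 to 1.27 CPM in DMSO libraries, and TLR2 and TLR4 did not pass the test.

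Of 16 tested antigen presentation genes 5 rose and 0 fell (median 0.14). CIITA, the master regulator of MHC class II genes, had 85.9, 83.9 and 93.8 CPM in MC4455 libraries and 38.0, 39.5 and 37.8 CPM in DMSO libraries, a log2 fold change of 1.19 (edgeR adjusted p = 5.75e-09). HLA-DRA, a class II chain, rose by 1.34 on the log2 scale, with 31.0, 24.3 and 31.0 CPM in MC4455 libraries and 11.2, 11.8 and 10.9 CPM in DMSO libraries. CD74, the class II invariant chain, rose by 0.68 to 205, 150 and 186 CPM in MC4455 libraries, against 110, 114 and 114 CPM in DMSO libraries. MC4455 B was the lowest treated library for HLA-DRA, HLA-DRB1 and CD74, and above every control for each. The class I genes HLA-B and B2M did not pass the test, nor did the class II genes HLA-DPA1, HLA-DPB1 and HLA-DMB, which were under 0.4 CPM in all 6 libraries. HLA-C was listed at 0 in every MC4455, MC4491, GSK-LSD1 and DMSO library, and HLA-DMA in every MC4455 and DMSO library. Whether reads of HLA genes were counted in full was not tested, so the levels of single HLA genes are uncertain.

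Of 9 tested granule genes of the granulocyte line 5 fell and 1 rose (median -0.29). CTSG, a granule protease, had 38.7, 44.7 and 36.1 CPM in MC4455 libraries and 55.2, 51.2 and 57.9 CPM in DMSO libraries. AZU1, an antimicrobial granule protein, fell by 0.36, PRTN3, the protease proteinase 3, by 0.82 and ELANE, neutrophil elastase, by 0.66 on the log2 scale. The call for ELANE was lost in 6 of 15 alternative settings. BPI, the member that rose, was under 1 CPM in all 6 libraries.

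Genes of progenitor identity were mixed. KIT, the receptor of stem cell factor, had 17.6, 15.8 and 19.2 CPM in MC4455 libraries and 5.73, 6.87 and 7.40 CPM in DMSO libraries, a log2 change of 1.39 ± 0.10 (SE) with edgeR adjusted p = 1.91e-08. CD34 rose by 0.58 on the log2 scale, with 8.70, 10.3 and 8.42 CPM in MC4455 libraries and 6.14, 6.97 and 5.21 CPM in DMSO libraries. That call was lost without MC4455 B (edgeR adjusted p = 0.0916), without DMSO C (0.0879) and without both (0.232, log2 fold change 0.38). GATA2, a transcription factor of stem cells and mast cells, fell by 0.46 and MYB, a factor of precursor growth, by 0.15. Together with CD38 that made 3 rises and 2 falls among 9 tested stem and progenitor genes, and 2 rises and 2 falls in each of those 3 settings. The leukaemia fusion targets moved little: HOXA9 and CDK6 fell by 0.17 and 0.21, while MEIS1, PBX3 and FLT3 did not pass the test. The call of HOXA9 was lost without DMSO C (edgeR adjusted p = 0.0609) and without both DMSO C and MC4455 B (0.196, log2 fold change -0.10). Among myeloid transcription factors, IRF4, a factor of dendritic and B cells, rose by 0.87, with 60.7, 60.9 and 64.8 CPM in MC4455 libraries and 28.7, 36.7 and 36.6 CPM in DMSO libraries, and SPI1 and CEBPA did not pass the test.

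The enzymes named in the series' title were lowered slightly at the RNA level. KDM1A (ENSG00000004487, chromosome 1, 23019443 to 23083689) had 107, 102 and 106 CPM in MC4455 libraries and 131, 118 and 119 CPM in DMSO libraries, a log2 change of -0.22 ± 0.04 (SE) with edgeR adjusted p = 0.000431. PRMT5 (ENSG00000100462, chromosome 14, 22920511 to 22929585) had 98.3, 86.7 and 89.6 CPM in MC4455 libraries and 115, 105 and 102 CPM in DMSO libraries, a log2 fold change of -0.23. In both genes the groups did not overlap, and these RNA levels say nothing of enzyme activity. Of 15 arginine methyltransferases and cofactors 7 fell and 0 rose (median -0.21), against 19.2% of all tested genes that fell. In the group of genes highest in level, 1187 of 3153 fell, and the part of that drift here was not tested. WDR77, the partner protein of PRMT5, fell by 0.48, PRMT1 by 0.34 and CARM1 by 0.21 on the log2 scale, and PRMT7 had a log2 fold change of -0.01 (edgeR adjusted p = 0.88). GFI1 had a log2 fold change of 0.10, a call that was lost without DMSO C (edgeR adjusted p = 0.0687), and RCOR1 and GFI1B did not pass the test.

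The most lowered genes included early response factors. KLF2, a transcription factor of quiescent leukocytes (ENSG00000127528, chromosome 19, 16324817 to 16327874, plus strand), had 4.65, 4.93 and 2.90 CPM in MC4455 libraries and 10.9, 12.6 and 16.2 CPM in DMSO libraries. The groups were apart, with a log2 change of -1.66 ± 0.25 (SE) with edgeR adjusted p = 4.79e-05. RHOB, an inducible small GTPase, had 14.6, 17.3 and 14.1 CPM in MC4455 libraries and 30.5, 36.3 and 42.9 CPM in DMSO libraries, and fell by 1.26 on the log2 scale. DUSP1, a phosphatase of MAP kinases, fell by 1.24, with 8.80, 10.7 and 7.34 CPM in MC4455 libraries and 17.0, 21.2 and 25.4 CPM in DMSO libraries. For KLF2, RHOB and DUSP1 the highest control was DMSO C. EGR3, FOSB, JUN, KLF6 and EGR1 fell by 1.12, 1.00, 0.95, 0.95 and 0.88 on the log2 scale. Of 17 tested KLF, AP-1 and EGR factors 11 fell and 1 rose (median -0.41), and without DMSO C 8 fell and the median was -0.25. NR4A1, an inducible nuclear receptor, was the member that rose, by 0.39. Without MC4455 B, or with a term in the fit for the libraries low in RRP9, 0 members rose.

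Of 30 tested genes of amino acid supply and the ATF4 response 23 fell and 1 rose (median -0.43), against 19.2% of all tested genes that fell. The list was chosen with earlier results of these data known, so the count is a description. TRIB3, a pseudokinase induced through ATF4, had 23.0, 27.6 and 17.6 CPM in MC4455 libraries and 39.4, 53.3 and 67.8 CPM in DMSO libraries, and fell by 1.23 on the log2 scale. ALDH1L2, a mitochondrial folate enzyme, fell by 0.96 to 46.6, 43.0 and 41.7 CPM in MC4455 libraries, against 89.4, 85.9 and 79.4 CPM in DMSO libraries. SLC7A11, the cystine importer, had 18.9, 16.8 and 16.8 CPM in MC4455 libraries and 28.2, 35.1 and 33.5 CPM in DMSO libraries. The serine synthesis enzymes PSAT1 and PHGDH fell by 0.76 and 0.64, and ATF4 itself by 0.45. With DMSO C and MC4455 B left out, the count that fell was again 23. NUPR1 was the member that rose, by 0.58, and 0 members rose without MC4455 B or with DMSO C and MC4455 B left out. NIBAN1, a stress-induced protein, and CBS, the enzyme that makes cystathionine from homocysteine, were among the 15 largest falls, at -1.06 and -1.04. CBS had 10.8, 8.78 and 9.94 CPM in MC4455 libraries and 21.1, 19.7 and 20.1 CPM in DMSO libraries.

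Chaperones of the endoplasmic reticulum fell in 14 of 15 tested cases and rose in 0 (median -0.37). HSPA5, the main chaperone of that compartment, had 433, 394 and 394 CPM in MC4455 libraries and 566, 572 and 655 CPM in DMSO libraries, a log2 fold change of -0.55. HYOU1, its nucleotide exchange factor, fell by 0.64, with 171, 155 and 165 CPM in MC4455 libraries and 268, 235 and 261 CPM in DMSO libraries. XBP1, a transcription factor of the unfolded protein response, fell by 0.37 and CANX, the lectin chaperone calnexin, did not pass the test. Of 12 tested heat shock genes 9 fell and 2 rose (median -0.34), HSPH1 by 0.63 and HSPA8 by 0.48 on the log2 scale, and the 2 that rose, HSPA6 and HMOX1, were under 4 CPM in all 6 libraries. The call of HMOX1 was lost in 4 of 15 alternative settings.

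Cholesterol synthesis genes fell in 19 of 21 tested cases and rose in 0 (median -0.37). HMGCS1, which makes the precursor of mevalonate, had 410, 448 and 370 CPM in MC4455 libraries and 635, 735 and 652 CPM in DMSO libraries, a log2 fold change of -0.72 (edgeR adjusted p = 3.13e-06). IDI1, FDPS and CYP51A1, further steps of the pathway, fell by 0.54, 0.53 and 0.53 on the log2 scale. FDFT1, the squalene synthase, did not pass the test. MC4455 B was the highest treated library for HMGCS1, IDI1, FDPS and CYP51A1, and below every control in each. SCD, the desaturase of fatty acids, had 1340, 1460 and 1190 CPM in MC4455 libraries and 1810, 2020 and 1860 CPM in DMSO libraries. ABCA1, the cholesterol exporter, also fell, to 8.52, 10.1 and 8.72 CPM in MC4455 libraries, against 18.0, 15.1 and 16.5 CPM in DMSO libraries, and TFRC, the iron importer transferrin receptor, fell by 0.73 to 1200, 1300 and 1110 CPM in MC4455 libraries, against 1950, 2040 and 2000 CPM in DMSO libraries.

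Lists of growth genes held many small falls, along with members that did not pass. Of all tested genes 19.2% fell, and in the group of genes highest in level 1187 of 3153 fell. Of 26 tested G2 and M phase genes 21 fell and 0 rose (median -0.21). CCNA2, cyclin A, had 135, 126 and 134 CPM in MC4455 libraries and 184, 170 and 166 CPM in DMSO libraries, and CCNB1, cyclin B, fell by 0.39 on the log2 scale. Of 26 tested S phase genes 18 fell and 1 rose (median -0.21), with POLA1, a DNA polymerase subunit, at 78.4, 69.6 and 73.4 CPM in MC4455 libraries and 116, 111 and 103 CPM in DMSO libraries. MKI67, the proliferation marker Ki-67, did not pass the test. Of 26 MYC and ribosome biogenesis genes 17 fell and 0 rose (median -0.23). CAD, an enzyme of pyrimidine synthesis, fell by 0.51, while MYC itself had 321, 295 and 292 CPM in MC4455 libraries and 312, 322 and 301 CPM in DMSO libraries, with a log2 fold change of -0.04 (edgeR adjusted p = 0.642). With DMSO C and MC4455 B left out, 16, 13 and 12 genes of these 3 lists fell. CDKN1A, the p53 target that encodes an inhibitor of cyclin-dependent kinases, was lower, at 77.3, 80.4 and 64.4 CPM in MC4455 libraries and 89.9, 105 and 113 CPM in DMSO libraries.

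**Figure D3:**
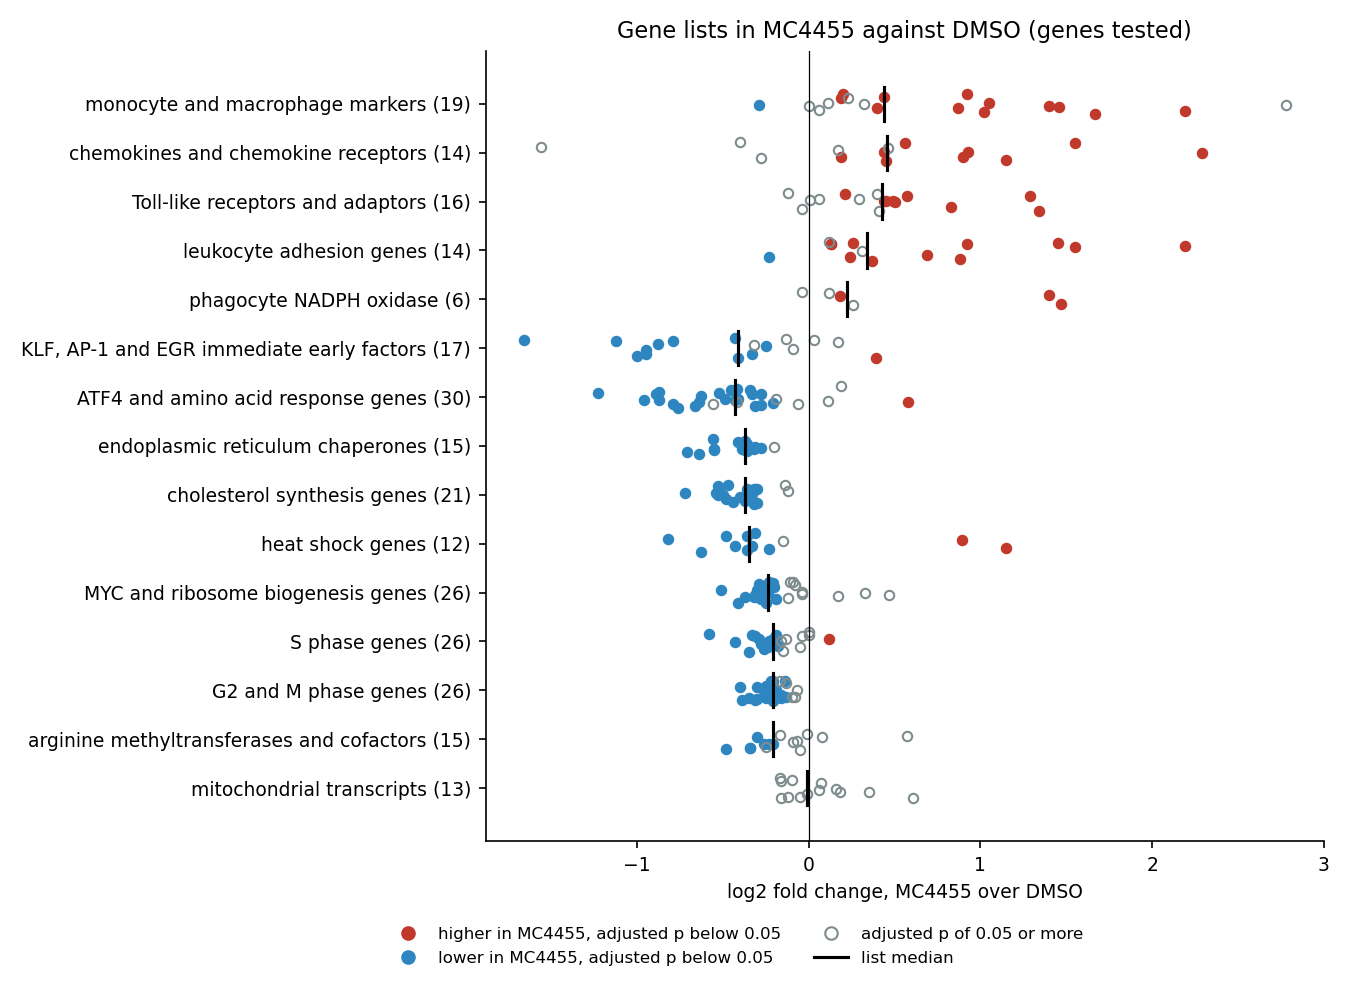
Log2 fold change, MC4455 over DMSO, of every tested gene of 15 lists, with filled points for genes with an adjusted p below 0.05, open points for the rest, and a bar at each list's median. Monocyte, chemokine, Toll-like receptor and adhesion genes lie mostly to the right (medians 0.34 to 0.45), and the ATF4, chaperone and cholesterol lists mostly to the left (medians -0.43 to -0.37).

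Further lists had few changed members, small changes or members in both directions. Of all tested genes 18.5% rose and 19.2% fell. Of 32 interferon-stimulated genes 8 rose and 3 fell (median 0.16), and without MC4455 B 4 rose, 4 fell and the median was -0.05. RSAD2, an antiviral enzyme, had 3.27, 4.20 and 3.64 CPM in MC4455 libraries and 2.10, 2.18 and 2.44 CPM in DMSO libraries. Of 20 MAPK and STAT5 feedback genes 3 rose and 7 fell, with DUSP4, a kinase phosphatase, higher by 0.86 and DUSP5 lower by 0.65. Of 15 BCL2 family genes 2 rose and 6 fell: HRK, a promoter of cell death, rose by 0.66, PMAIP1 fell by 0.59 and BCL2 fell by 0.16 on the log2 scale. Of 19 DNA repair genes 3 rose and 10 fell, and ATM, the kinase that responds to DNA breaks, was higher at 624, 689 and 667 CPM in MC4455 libraries, against 465, 479 and 453 CPM in DMSO libraries. Of 14 NF-kB and inflammatory genes 0 rose and 2 fell, of 27 splicing factors 0 rose and 14 fell (median -0.16), and of 27 p53 targets 3 rose and 7 fell. Lysosomal genes (5 rose and 5 fell of 20), NRF2 targets (2 and 3 of 15) and hypoxia genes (1 and 1 of 17) showed no common direction. Of 9 tested neuronal genes known to be repressed through REST and CoREST 4 rose and 0 fell, against 18.5% of all tested genes that rose. RUNDC3A was at 11.3, 13.2 and 13.0 CPM in MC4455 libraries and 7.12, 7.0 and 7.29 CPM in DMSO libraries. The calls of RUNDC3A, SYP and CELSR3 held in 15 of 15 alternative settings. That of CHGB, at 0.13, 0.313 and 0.269 CPM in MC4455 libraries, held in 6 of 13. The part of the drift with level in this list was not tested, and the list was chosen with earlier results of these data known. The 13 mitochondrial transcripts had a median log2 fold change of -0.01, and of -0.25 without DMSO C, the library low in RRP9.

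ENTREP3 and CDK7, among the 15 largest falls, were unstable. ENTREP3 had 5.89, 3.88 and 0.657 CPM in MC4455 libraries and 26.6, 14.2 and 24.7 CPM in DMSO libraries, and its call held in 7 of 15 alternative settings. CDK7, a kinase of the cell cycle and of transcription, had 0.779, 0.782 and 4.30 CPM in MC4455 libraries and 12.7, 11.9 and 9.73 CPM in DMSO libraries, and its call held in 12 of 15 settings. The GSK-LSD1 libraries were as uneven, with ENTREP3 at 4.74, 8.23 and 0 CPM and CDK7 at 10.6, 4.45 and 0.771 CPM.

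Against MC4491, MC4455 gave no gene that passed the test with all libraries in the fit. edgeR called 0 of 16640 genes (0%), 780 genes had an unadjusted p below 0.05, and DESeq2 called 15 genes. The groups did not overlap for 8.94% of genes. Of 11040 genes with a mean of at least 5 CPM, 10879 (98.5%) had a 95% interval of the difference that lay within 1 log2 unit of 0, with a median half-width of 0.13 log2 units. For most of these genes a 2-fold difference therefore lay outside the interval, while smaller ones did not always. For ITGAM, at 14.6, 12.4 and 15.3 CPM in MC4455 libraries and 13.4, 10.7 and 8.79 CPM in MC4491 libraries, the difference was 0.36 log2 units (95% interval 0.03 to 0.68, edgeR adjusted p = 0.982). For CYBB it was -0.19 (-0.36 to -0.01), for KLF2 -0.07 (-0.60 to 0.45) and for KDM1A -0.03 (-0.12 to 0.06).

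The count of 0 against MC4491 changed when MC4455 B was left out, and whether that library matches its label was not tested. VCAN had 39.9, 11.7 and 40.7 CPM in MC4455 libraries A, B and C and 12.6, 11.9 and 12.3 CPM in MC4491 libraries A, B and C. SYT2 had 20.8, 9.59 and 21.5 CPM in MC4455 libraries and 10.8, 10.3 and 7.03 CPM in MC4491 libraries. IGF1 had 33.7, 22.7 and 35.4 CPM in MC4455 libraries and 21.1, 19.8 and 16.4 CPM in MC4491 libraries. In each of these genes MC4455 A and C lay close together, while MC4455 B lay in or near the MC4491 range. Over 11040 genes the root mean square log2 difference was 0.228 between MC4455 A and B, 0.261 between A and C and 0.281 between B and C. MC4455 A, B and C were 0.231, 0.220 and 0.248 from MC4491 A. They were 0.285, 0.268 and 0.291 from MC4491 B and 0.266, 0.281 and 0.275 from MC4491 C. Without MC4455 B, 29 genes passed the test against MC4491, 18 higher and 11 lower, and for all 29 MC4455 B had lain on the MC4491 side of both MC4455 A and MC4455 C. These genes did not pass with all libraries and were picked out by the libraries that remain. That choice favours genes in which MC4455 B lay towards MC4491. Its position and the agreement of A and C in them are therefore a description and no test of its label. Without MC4455 B the difference was 1.72 log2 units for VCAN (95% interval 1.62 to 1.82), 1.17 for SYT2 (0.87 to 1.46), 0.85 for IGF1 (0.59 to 1.11), 0.66 for CYP1B1, an oxidising enzyme of steroids and drugs (0.46 to 0.86), and 0.42 for MPEG1 (0.28 to 0.56). Among the lower genes, MPO, the granule peroxidase, was at -0.42 (-0.56 to -0.27) and GAS6, a ligand of receptor kinases, at -0.33 (-0.44 to -0.22). These intervals rest on MC4455 A and C, in genes picked by that choice of libraries, and can overstate size and precision. With all libraries the difference was 1.32 for VCAN (0.79 to 1.86), 0.88 for SYT2 (0.44 to 1.31) and 0.68 for IGF1 (0.38 to 0.98). It was 0.50 for CYP1B1 (0.26 to 0.74), 0.29 for MPEG1 (0.11 to 0.47), -0.35 for MPO (-0.49 to -0.21) and -0.24 for GAS6 (-0.36 to -0.12). Leaving out any other MC4455 or MC4491 library gave 0 calls in edgeR.

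Against GSK-LSD1, MC4455 differed in 5553 of 16640 genes (33.4%), with 2303 higher (13.8%) and 3250 lower (19.5%), and with 249 higher (1.5%) and 310 lower (1.86%) by at least 2-fold. The groups did not overlap for 8346 genes (50.2%), of which 5429 (32.6% of those tested) also passed the test. The same MC4455 libraries serve in this comparison and in that with DMSO, so the levels of all groups are given side by side. VCAN was at 39.9, 11.7 and 40.7 CPM in MC4455 libraries and at 578, 603 and 613 CPM in GSK-LSD1 libraries, a log2 fold change of -4.28 (edgeR adjusted p = 1.44e-10). FCRLA, an Fc receptor-like gene, was at 1.22, 0.443 and 0.866 CPM in MC4455 libraries, at 63.5, 70.3 and 75.5 CPM in GSK-LSD1 libraries and at 0.136, 0.363 and 0.587 CPM in DMSO libraries. KCTD12, a partner of GABA receptors, was at 15.4, 12.5 and 15.7 CPM in MC4455 libraries, at 189, 201 and 204 CPM in GSK-LSD1 libraries and at 10.4, 11.0 and 10.3 CPM in DMSO libraries. For these 3 genes the MC4455 level was far nearer to the DMSO level than to the GSK-LSD1 level. RTN4RL1, WFS1, RBM47, TICAM2, KDM7A and KCNK13 were also among the 10 largest falls, with log2 fold changes of -3.87 to -2.75. KDM7A, a histone demethylase, was at 2.05, 2.29 and 2.98 CPM in MC4455 libraries, 19.4, 19.0 and 20.9 CPM in GSK-LSD1 libraries and 2.51, 2.95 and 2.98 CPM in DMSO libraries.

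Where MC4455 was higher than GSK-LSD1, the level in DMSO libraries was in some genes near the one and in some near the other. KIT was at 17.6, 15.8 and 19.2 CPM in MC4455 libraries, 7.94, 8.94 and 8.38 CPM in GSK-LSD1 libraries and 5.73, 6.87 and 7.40 CPM in DMSO libraries. IRF4 was at 60.7, 60.9 and 64.8 CPM in MC4455 libraries, 27.2, 28.0 and 29.4 CPM in GSK-LSD1 libraries and 28.7, 36.7 and 36.6 CPM in DMSO libraries. The 10 largest rises against GSK-LSD1, of MYO7B, CX3CR1, CES1, CHI3L1, PEG3, RNF175, LDC1P, GRIP1, KCNQ3 and DPYSL3, had log2 fold changes of 1.63 to 2.77. CX3CR1, the fractalkine receptor of monocytes, was at 8.96, 11.3 and 8.36 CPM in MC4455 libraries, 1.80, 1.26 and 1.93 CPM in GSK-LSD1 libraries and 7.64, 9.48 and 8.26 CPM in DMSO libraries. CES1, a carboxylesterase of monocytes and liver, was at 31.1, 36.5 and 31.3 CPM in MC4455 libraries, 6.40, 7.91 and 7.12 CPM in GSK-LSD1 libraries and 44.3, 38.8 and 37.8 CPM in DMSO libraries. In both of these genes it was the GSK-LSD1 group that was low. CHI3L1, a chitinase-like secreted protein, was higher at 17.4, 20.5 and 16.1 CPM in MC4455 libraries than at 4.09, 3.83 and 4.63 CPM in GSK-LSD1 libraries and 5.54, 8.34 and 8.19 CPM in DMSO libraries. By list, 3 of 19 monocyte markers were higher and 11 lower in MC4455 than in GSK-LSD1 libraries (median -0.81), 11 of 21 cholesterol synthesis genes were higher and 1 lower (median 0.21), and 0 of 15 endoplasmic reticulum chaperones were higher and 12 lower (median -0.26). All 20 genes of this comparison named by the rule kept their call in every alternative setting run.

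Transcript usage, the share of a gene's reads that each of its transcripts takes, changed in 1683 of 11439 genes (14.7%) in limma's diffSplice test with Simes p-values and Benjamini-Hochberg adjustment. The count dropped to 541 with DMSO C and MC4455 B left out, to 1008 without MC4455 B alone, to 1029 without MC4455 C and to 1057 without DMSO C. Among 74564 tested transcripts, 1162 (1.56%) had a higher share and 1281 (1.72%) a lower share in MC4455 libraries. Transcripts annotated as retained introns, which keep an intron that other transcripts of the gene remove, had a higher share in 337 of 16927 cases (1.99%) and a lower share in 37 (0.219%). For protein-coding transcripts it was 615 higher and 1072 lower of 40070. With DMSO C and MC4455 B left out, 69 retained-intron transcripts had a higher and 9 a lower share. The pairing of transcripts to genes rested on GENCODE 29, and the split of reads between overlapping transcripts is an estimate.

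Over all genes, retained-intron transcripts took 5.89%, 6.40% and 6.18% of paired reads in MC4455 libraries A, B and C and 5.19%, 5.20% and 5.09% in DMSO libraries A, B and C. Every MC4455 library was above every DMSO library, with means of 6.15% ± 0.26 and 5.16% ± 0.06 (SD, n = 3 each). The difference was 0.99 percentage points, with an exact two-sided permutation p of 0.1, which is the smallest that 3 against 3 libraries can give. MC4491 libraries A, B and C had 6.08%, 5.89% and 5.79% and GSK-LSD1 libraries 5.54%, 5.28% and 5.39%. The MC4455 and MC4491 ranges overlapped. In the other groups of the series, libraries of the same treatment spread more widely than the DMSO libraries. The share was 4.96% to 5.79% with the compound MS023 and 5.23% to 6.27% with MS023 plus GSK-LSD1. It was 5.21% to 5.82% with the compound PRT220 and 5.54% to 6.46% with PRT220 plus GSK-LSD1.

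CDK5RAP3, a factor of protein modification by UFM1 (chromosome 17, GRCh38), showed the pattern in 1 gene. Its retained-intron transcript CDK5RAP3-231 took 67.5%, 66.8% and 65.9% of its reads in MC4455 libraries and 54.8%, 55.6% and 56.4% in DMSO libraries (limma diffSplice adjusted p = 1.79e-10), and the coding transcript CDK5RAP3-201 took 11.6%, 13.8% and 14.5% in MC4455 libraries and 26.8%, 26.1% and 27.8% in DMSO libraries. RAB4B, a GTPase of endosome recycling, had its retained-intron transcript RAB4B-204 at 45.1%, 52.0% and 48.6% in MC4455 libraries and 32%, 31.8% and 28.3% in DMSO libraries. In both genes the groups were far apart compared with the spread within them. CDK10, a cyclin-dependent kinase, had CDK10-204, a retained-intron transcript, at 27.4%, 31.5% and 29.8% in MC4455 libraries and 20.3%, 24.5% and 16.6% in DMSO libraries. CGGBP1, a protein that binds CGG repeats, had its coding transcript CGGBP1-201 at 52.8%, 47.6% and 49.7% in MC4455 libraries and 69.4%, 65.6% and 68.1% in DMSO libraries. GGCX, the vitamin K dependent carboxylase, had GGCX-205 at 11.9%, 8.1% and 4.2% in MC4455 libraries and 26.4%, 22.3% and 20.2% in DMSO libraries. The usage calls of DEPDC5, CDK5RAP3, RAB4B, CDK10, CGGBP1 and GGCX held in 13 of 13 alternative settings, while those of PIGT and ZNF638 were lost with DMSO C and MC4455 B left out (limma diffSplice adjusted p = 0.394 and 0.351). ZNG1B also passed, but near-identical copies of that gene make its shares uncertain, and in PHGDH the share of PHGDH-230 was 0%, 15.7% and 19.0% in MC4455 libraries and 26.6%, 16.5% and 23.5% in DMSO libraries, with overlap.

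**Figure D4:**
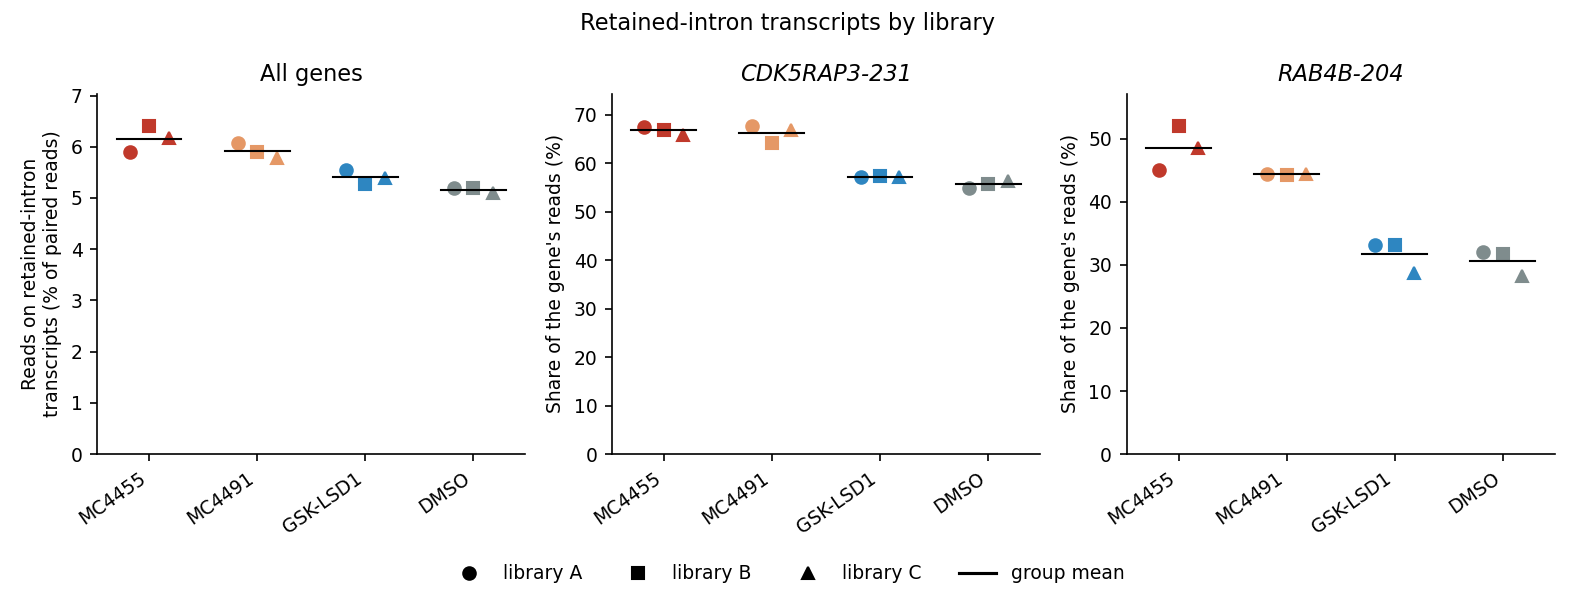
Share of paired reads on retained-intron transcripts over all genes (left), and share of the gene's own reads on CDK5RAP3-231 (middle) and RAB4B-204 (right), in percent, for each MC4455, MC4491, GSK-LSD1 and DMSO library, with a line at the group mean. In all 3 panels each MC4455 library is above each DMSO library, and the MC4491 libraries lie within or near the MC4455 range.

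XBP1, which was picked out after its values were seen because it had the smallest usage p-value of all genes, paired its fall in level with a shift of transcripts. The coding transcript XBP1-201 took 87.4%, 90.1% and 90.6% of its reads in MC4455 libraries and 80.7%, 83.2% and 82.8% in DMSO libraries, and XBP1-207 took 1.5%, 1.6% and 0.8% in MC4455 libraries and 10.3%, 8.6% and 10.1% in DMSO libraries (limma diffSplice adjusted p = 1.04e-20). The groups were far apart for XBP1-207, and the call held in 13 of 13 alternative settings. XBP1-207 took 1.8%, 1.8% and 2.4% in MC4491 libraries and 2.4%, 1.9% and 2.1% in GSK-LSD1 libraries, so all 3 treatments lay below DMSO.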

How the data were processed

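Levels came from 2 deposited tables, of genes and of transcripts, with 24 libraries as columns. The authors deposited estimated counts, with no scaling between libraries as far as the values show. Per the submitters' processing notes, which give no roles, the tools were DESeq2 1.28.1, R 4.0.0, STAR 2.7.3a and Salmon 1.2.1 and the build was GRCh38, and reads had 101 bases, per the labels' protocols. Annotation release and filters are not given in the sources used here.

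Counts were rounded and fitted in R 4.3.3 with edgeR 4.0.16 (quasi-likelihood test, TMM scaling, filterByExpr, 24 libraries, 1 coefficient per group, Benjamini-Hochberg adjustment). Fitted were 16640 of 38048 genes, with symbols for 35051. Levels are CPM after TMM scaling. Calls have an adjusted p below 0.05. The SE is the log2 fold change over the square root of F. Coordinates and transcript types came from GENCODE 29, which paired 167049 of 178398 transcripts and 96.6% to 96.8% of reads. Usage was tested with voom and diffSplice in limma 3.58.1 on transcripts with at least 10 counts in 3 libraries. Both tests were tried on simulated data. Depth was 32495446 to 61090593 counts per library, so low genes carry more counting error.

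Named genes were the 15 largest called changes per direction against DMSO (10 against GSK-LSD1) that have a symbol, reach 5 CPM on average and show no overlap of the groups, up to 5 called genes of each of 38 lists by size of change, the 10 genes with the smallest usage p and a share change of at least 10 points, and fixed genes such as KDM1A, PRMT5, MYC and CDKN1A. A few of them are not reported here. The text uses fewer, and adds members to show what did not pass. The members and lists were chosen with earlier results of these data known. Alternatives were RLE scaling, other filters, DESeq2 1.42.0, a replicate block, only the 6 libraries compared, a term for the RRP9-low libraries and leaving out libraries. Leaving out DMSO C and MC4455 B together was chosen after seeing the data.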

Additional observations from a re-analysis of the deposited data

How the results depend on the processing

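Against DMSO, the count of changed genes was 6264 with all libraries and 4896 to 6374 under RLE scaling, other filters, DESeq2, a term for the RRP9-low libraries, their removal and a fit of the 6 libraries alone, and 4963 to 5887 when 1 library was left out. It was 4161 (2015 higher) without DMSO C and MC4455 B. Against MC4491, where edgeR called 0 genes, the count was 1 with no filter, 4 with only the 6 libraries, 15 with DESeq2, 31 without DMSO C and MC4455 B, and 0 to 29 when 1 library was left out. Against GSK-LSD1 it was 5553 and 4031 to 6080. Usage calls numbered 1683, with 1414 to 2409 under other filters, scaling and terms, 541 without DMSO C and MC4455 B, and 1008 to 1327 when 1 library was left out. The retained-intron difference was 0.87 to 1.13 points.

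The libraries were not treated as paired by their letters A, B and C. Deviations of same-lettered MC4455 and DMSO libraries from their group means correlated weakly, at 0.09, 0.17 and -0.04 over 11040 genes. With means of 3 libraries, such values cannot show whether a letter marks a shared culture or batch. With a replicate block, 6085 genes were called against DMSO (2976 higher, 3109 lower), 0 against MC4491, 5302 against GSK-LSD1 and 1437 for usage.

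Of 2828 values of 189 named genes against DMSO under alternatives, 2662 kept their direction and side of the threshold, 165 lost their call, 1 gained it and 0 turned round. Depth limits genes near 1 CPM most.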
